A study of Mus musculus with 32 samples.

Results

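Transcripts of 29 nuclear genes for subunits of mitochondrial respiratory complexes II, III, IV and V were compared in single mouse oocytes. The genes were those of 13175 measured genes whose symbol begins with Uqcr, with Atp5 or with Cox and a digit from 4 to 8, together with Sdha, Sdhb, Sdhc, Sdhd and Cyc1. They comprised 4 genes of complex II, 9 of complex III, 15 of complex IV and 1 of complex V. Atp5pb was the only Atp5 gene among the measured genes, and no symbol with the mt- prefix of genes encoded by mitochondrial DNA was among them. Preantral follicles of WT mice were vitrified, that is, stored in a glass-like frozen state, or kept fresh, and were then grown in an encapsulated culture. The groups were 12 metaphase II (MII) oocytes ovulated on day 9 after hCG from vitrified follicles, 12 such MII oocytes from fresh follicles, 4 germinal vesicle (GV) oocytes taken on day 8 from vitrified follicles and 4 such GV oocytes from fresh follicles. Levels are CPM, that is, counts scaled to 1000000 per library on scaled library sizes. The mouse or culture behind each oocyte is not given in the labels, so p-values measure the spread between these oocytes.

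The respiratory chain passes electrons to oxygen and pumps protons, and ATP synthase, which is complex V, uses the proton gradient to make ATP. Complex II takes electrons from succinate, complex III passes them from ubiquinol to cytochrome c, and complex IV passes them to oxygen. In mouse oocytes, ATP comes mainly from mitochondrial oxidation of pyruvate supplied by the follicle cells. The fully grown GV oocyte makes little new RNA, and the MII egg relies on stored transcripts whose poly(A) tails are shortened or lengthened during maturation.

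The kit used to make the libraries primes on poly(A) tails, so the mRNA ends of some members that differed between the stages are shown first. Each line is 30 bases from the last 100 bases of 1 GENCODE M21 transcript (GRCm38). Capitals mark the poly(A) signal, searched as AATAAA or ATTAAA, or the cytoplasmic polyadenylation element, searched as TTTTAT or TTTTAAT, on the sense strand.
Sdha: aattgtaagccaAATAAAccctttctcaaa
Uqcrc2: gtggctttttaaAATAAAaacaactttaac
Cox7a2: ttttcacttgagAATAAAttcctggtaata
Cox4i1: atggtccatgctAATAAAagaccagtttac
Cox5a: tgcctggaaatgTTTTATttgaacaaattt
Cox6a2: cctgcattttcaTTTTATtttttaaaaatt
Sdha, Uqcrc2 and Cox7a2 were higher in MII oocytes, and the other three were lower. Sdha is on chromosome 13 (74322254 to 74350280), Uqcrc2 on chromosome 7 (120635176 to 120659524) and Cox7a2 on chromosome 9 (79755361 to 79759878). Cox4i1 is on chromosome 8 (120668222 to 120674207), Cox5a on chromosome 9 (57521274 to 57532426) and Cox6a2 on chromosome 7 (128205435 to 128206387). A poly(A) signal was found in 24 of 29 members and in 76.6% of 13043 genes. The cytoplasmic element was found in 2 of 29 members, Cox5a and Cox6a2, and in 18.7% of the same genes. Neither of the 2 was among the members that were higher in MII oocytes. With 2 members, no relation of the element to the stage can be read from this.

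Promoters of 19 of the 29 members were matched in RefSeq (GRCm38.p6, 250 bases before to 50 after the gene's start). Letters of several factors, of the CCAAT box and of the TATA box were searched on both strands. Nuclear respiratory factor 1 (NRF1), a known activator of respiratory genes, was searched as GCGCA, any base and GCGC. It was found in 4 of 19 members, namely Sdha, Sdhd, Uqcrc1 and Cox6a1, and in 4.78% of 27025 promoters. The ETS letters CCGGAAG, bound by GABP among others, were found in 7 of 19 members and in 9.12% of promoters. The letters of YY1, AAGATGGCG, were in 0 of 19 members and 1.49% of promoters, and those of ERR, TCAAGGTCA, were in Sdhd alone and in 0.407% of promoters. CCAAT was found in 9 of 19 members and 37.9% of promoters, and TATAAA in 0 of 19 and 14.2%. The promoters of Sdha (chr13:74350191-74350490, minus strand) and Cox6a1 (chr5:115348909-115349208, minus strand) are printed because both hold NRF1 letters more than once while their transcripts differed in opposite directions between stages. Capitals mark the NRF1 letters and, in Cox6a1, the ETS letters in reverse; no NRF1 match overlaps an ETS match.
Sdha: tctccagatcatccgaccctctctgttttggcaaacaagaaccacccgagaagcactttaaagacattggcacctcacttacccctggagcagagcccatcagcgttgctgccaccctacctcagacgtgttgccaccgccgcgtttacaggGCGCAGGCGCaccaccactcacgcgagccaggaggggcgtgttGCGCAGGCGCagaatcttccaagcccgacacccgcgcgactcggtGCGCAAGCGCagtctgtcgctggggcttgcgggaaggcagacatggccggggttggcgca
Cox6a1: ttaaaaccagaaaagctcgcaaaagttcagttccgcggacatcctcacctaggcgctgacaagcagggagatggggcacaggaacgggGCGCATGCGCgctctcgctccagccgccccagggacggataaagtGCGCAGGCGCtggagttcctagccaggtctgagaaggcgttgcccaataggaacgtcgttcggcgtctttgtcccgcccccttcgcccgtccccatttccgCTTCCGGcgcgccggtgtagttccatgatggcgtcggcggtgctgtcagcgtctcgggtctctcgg

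Total counts per oocyte ran between 5300210 and 12206521 in MII oocytes from vitrified follicles, 6196983 and 10142908 in MII oocytes from fresh follicles, 11159677 and 16554201 in GV oocytes from vitrified follicles, and 10357543 and 17687247 in GV oocytes from fresh follicles. Of 15 oocyte markers, 14 were measured, and their summed level was between 11521 and 26629 CPM in all 32 oocytes. Markers of cumulus and granulosa cells, 25 of 29 measured, summed to at most 881 CPM in MII oocytes from vitrified follicles, 149 CPM in GV oocytes from vitrified follicles and 142 CPM in GV oocytes from fresh follicles. Fresh MII oocyte 11 stood apart at 5440 CPM, beside a median of 101.7 CPM over the MII oocytes from fresh follicles. It was also the highest of the 24 MII oocytes for 17 of the 29 members, so values without it stand beside some results whose call or size it moves. Values of GV oocytes were whole and those of MII oocytes partly fractional, and library numbers were 81 to 85 in GV oocytes and 2 to 25 in MII oocytes. The kind of counting and the library number therefore cannot be told apart from the stage. Every gene of the table had counts in at least 1 MII oocyte, while 376 were at 0 in all 8 GV oocytes.

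Most subunit transcripts were far lower in MII than in GV oocytes, whether the follicle had been vitrified or fresh, and a few were higher. All 29 members entered the stage tests, which used 1 quasi-likelihood fit of edgeR to all 32 oocytes. In oocytes of vitrified follicles 25 of 29 passed an adjusted p of 0.05, 5 higher and 20 lower in MII, where 57.0% of 11470 genes passed (23.3% higher, 33.7% lower). In oocytes of fresh follicles 26 passed, 5 higher and 21 lower, where 52.6% of genes passed (22.8% higher, 29.8% lower). The median log2 fold change of members was −3.49 with vitrified and −2.88 with fresh follicles, beside −0.34 and −0.23 over all genes tested. Sdhd and Uqcr11 were near 0 counts in GV oocytes. Setting both against a floor of 3 counts could not move these medians, since both genes stayed above 0 either way. Without fresh oocyte 11, 28 of 29 members passed in the fresh comparison, with a median of −3.19. In that fit 6251 of 11349 genes passed, with a median of −0.33 over all genes. When 1 oocyte was left out, fresh log2 fold changes ran between −8.28 and −6.62 for Uqcrq and −6.55 and −5.40 for Cox4i1. They ran between −4.44 and −3.31 for Sdhb and −5.05 and −3.65 for Uqcrb. Fresh oocyte 11 held 79.9, 139, 75.9 and 42.6 CPM of Uqcrq, Cox4i1, Sdhb and Uqcrb. The other 11 MII oocytes from fresh follicles had means of 3.47, 10.8, 6.03 and 4.58 CPM, in the same order. Some members reached the count filter through 1 stage alone, so their number is a description and not support.

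**Figure D1:**
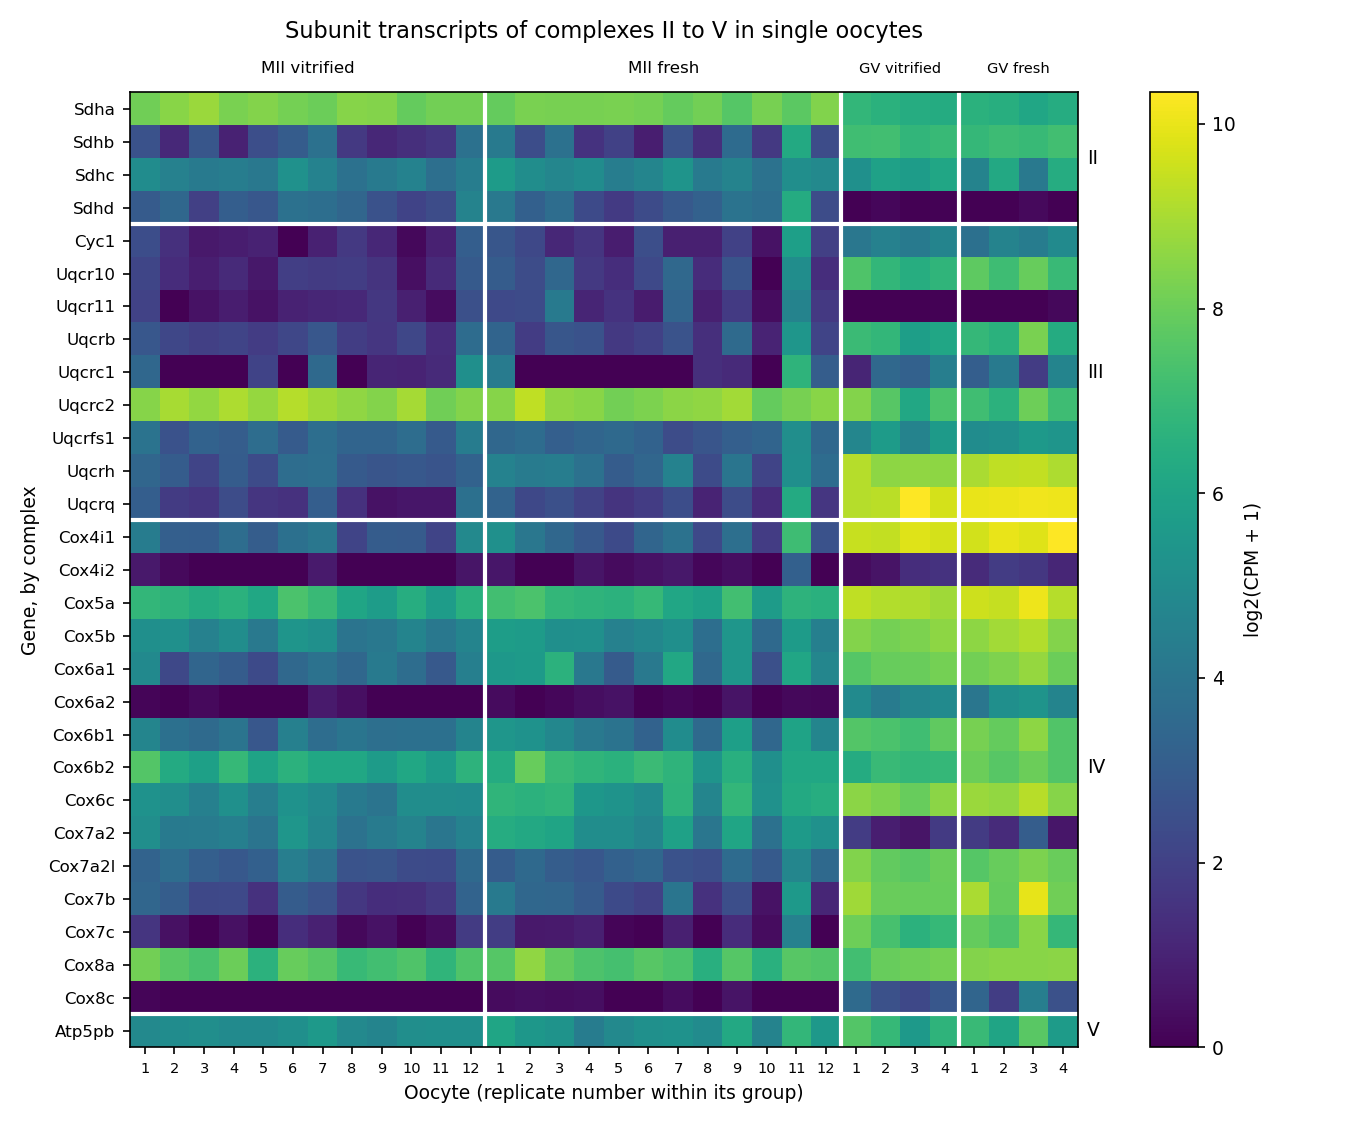
Level of each of the 29 members (rows, by complex) in each of the 32 oocytes (columns, by group), as log2(CPM + 1) from dark (low) to bright (high). Most members of complexes III and IV are bright in the 8 GV oocytes and dark in the 24 MII oocytes, while Sdha, Uqcrc2 and Cox7a2 are brighter in MII oocytes, and fresh MII oocyte 11 is brighter than its group in many rows.

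The complexes differed in how much of their summed level was present at MII. Complex II summed to 348 ± 51.8 CPM in MII oocytes from vitrified follicles, against 279 ± 24.5 CPM in GV oocytes from vitrified follicles (SD, n = 12 and 4). In oocytes of fresh follicles the sums were 329 ± 39.4 CPM at MII and 265 ± 49.2 CPM at GV. Sdha made up most of the sum at MII. Complex III summed to 461 ± 88.3 CPM at MII against 1730 ± 197 CPM at GV with vitrified follicles, and to 449 ± 138 CPM at MII against 2233 ± 295 CPM at GV with fresh follicles. Uqcrc2, which was higher at MII, made up most of the complex III sum there. Its mean was 426 CPM at MII and 197 CPM at GV with vitrified follicles, and 375 and 163 CPM with fresh follicles. The sum therefore hides the larger fall of most other complex III genes. Complex IV summed to 490 ± 157 CPM at MII against 3519 ± 224 CPM at GV with vitrified follicles, and to 659 ± 262 CPM at MII against 4876 ± 963 CPM at GV with fresh follicles. The highest MII oocyte lay below the lowest GV oocyte for complexes III and IV, whereas for complex II the ranges overlapped. These sums are levels of transcripts, and no protein or enzyme activity was measured.

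**Figure D2:**
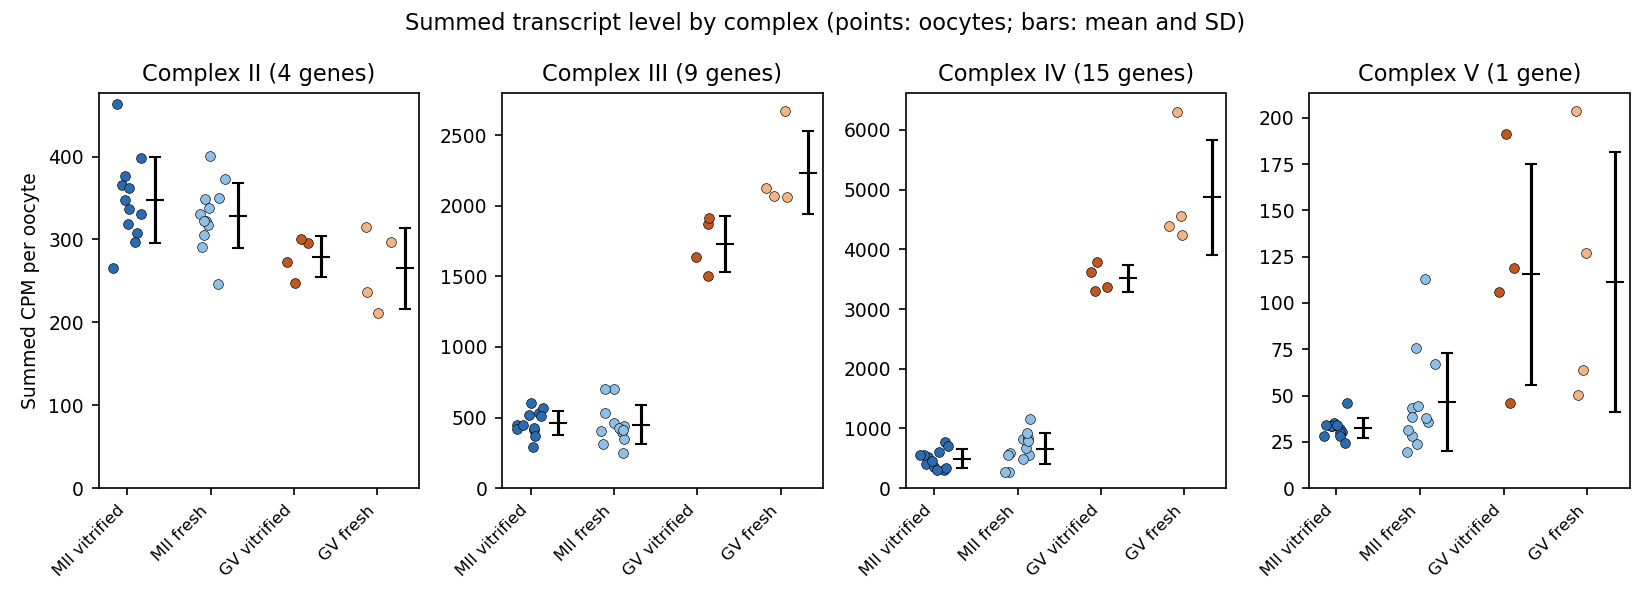
Summed CPM per oocyte for each complex, 1 point per oocyte, with the mean and SD of each group beside the points; each axis starts at 0. For complexes III and IV all MII oocytes lie below all GV oocytes, for complex II the stages overlap, and for complex V, which has 1 gene, the lowest GV oocytes lie among the MII oocytes.

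In complex II, which oxidises succinate, the 4 subunits went in different directions. Sdha, the flavoprotein that binds succinate, had a lowest, median and highest level of 238, 297 and 437 CPM in MII oocytes from vitrified follicles. In MII oocytes from fresh follicles these were 197, 291 and 336 CPM. In GV oocytes it had 115, 95.2, 84.1 and 81.1 CPM with vitrified follicles and 97.0, 89.3, 68.8 and 84.7 CPM with fresh ones. Every MII oocyte was above every GV oocyte, and the log2 fold change was 1.73 ± 0.18 (SE) with vitrified and 1.67 ± 0.18 with fresh follicles (edgeR adjusted p of 6.59e-10 and 1.62e-09). Sdhb, the iron-sulphur subunit that binds Sdha, showed the opposite order. Its lowest, median and highest levels were 0.973, 3.47 and 13.7 CPM in MII oocytes from vitrified follicles and 0.848, 4.35 and 75.9 CPM in those from fresh follicles, where 75.9 CPM is oocyte 11. In GV oocytes Sdhb had 144, 146, 112 and 124 CPM with vitrified follicles and 116, 134, 125 and 147 CPM with fresh ones. No MII value reached the GV range, and the log2 fold change was −4.75 ± 0.70 with vitrified and −3.47 ± 0.68 with fresh follicles (edgeR adjusted p of 4.72e-07 and 5.28e-05).

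Sdhc and Sdhd together anchor complex II in the inner membrane. Sdhc was lower at MII, with a log2 fold change of −1.37 ± 0.32 in vitrified follicles (edgeR adjusted p = 0.000401) and −0.83 ± 0.32 in fresh follicles (edgeR adjusted p = 0.0316). Its medians were 19.8 and 27.3 CPM at MII with vitrified and fresh follicles, and the GV values ran between 36.0 and 68.2 CPM with vitrified and between 16.9 and 83.6 CPM with fresh follicles. The MII and GV oocytes overlapped with both kinds of follicle (the highest MII value with vitrified follicles was 36.2 CPM), and the call in fresh follicles was lost in 9 of the alternatives run, among them without fresh GV oocyte 2 or 4 and without fresh MII oocyte 8 or 10 (log2 fold changes of −0.56, −0.45, −0.73 and −0.71). Sdhd was close to absent in GV oocytes, with 4 counts summed over the GV oocytes from vitrified follicles and 2 over those from fresh follicles. At MII its lowest, median and highest levels were 2.90, 7.26 and 23.6 CPM with vitrified follicles and 2.40, 8.14 and 81.9 CPM with fresh ones. The pooled ratio of MII to GV was 164 with vitrified follicles (95% counting interval 64.2 to 604) and 538 with fresh follicles (149 to 4443). Fresh oocyte 11 held 536 of the 1242 Sdhd counts in MII oocytes from fresh follicles, and without it the ratio was 329 (91.2 to 2721). These intervals cover counting error only.

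In complex III, which oxidises ubiquinol, Uqcrc2 and Uqcr11 were higher at MII, and the other members that passed were lower. Uqcrc2, a core subunit, was the most abundant member of the complex per length at MII, at a median of 217 CPM per kilobase of mRNA with vitrified and 191 with fresh follicles. Its lowest, median and highest levels were 274, 411 and 576 CPM in MII oocytes from vitrified follicles and 236, 363 and 651 CPM in those from fresh follicles. In GV oocytes it had 345, 200, 71.5 and 172 CPM with vitrified follicles and 143, 100, 267 and 141 CPM with fresh ones. The GV values spread widely and overlapped the MII values in both comparisons. The log2 fold change was 1.10 ± 0.29 with vitrified and 1.19 ± 0.29 with fresh follicles (edgeR adjusted p of 0.00136 and 0.000691). Of the exon bases of Uqcrc2, 19.7% lie over exons of Pdzd9 and cannot be assigned without strand, which the sources used here do not give. Uqcrc1, the other core subunit, had a median of 1.09 CPM at MII with vitrified follicles and was at 0 in 7 of 12 MII oocytes from fresh follicles, beside 1.07 to 20.3 CPM in GV oocytes from vitrified follicles and 2.58 to 24.5 CPM in those from fresh follicles. It did not pass in either comparison, with log2 fold changes of −0.96 ± 1.5 and −0.25 ± 1.54, and its sign in fresh follicles turned to 0.24 without fresh GV oocyte 4. Fresh MII oocyte 11 held 105.9 CPM of Uqcrc1, beside a mean of 2.64 CPM in the other 11. Without that oocyte the log2 fold change in fresh follicles was −2.32 (edgeR adjusted p = 0.136). Without 4 MII oocytes high in cumulus cell genes, fresh oocyte 11 among them, the log2 fold change was −3.71 and passed (edgeR adjusted p = 0.0102).

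The small subunits of complex III gave the widest gaps of that complex. Uqcrq, the subunit that lies against cytochrome b, was the highest member of complex III per length in GV oocytes, at a median of 1405 CPM per kilobase with vitrified and 2128 with fresh follicles. It had a lowest, median and highest level of 0.417, 2.04 and 12.9 CPM in MII oocytes from vitrified follicles and 1.04, 3.40 and 79.9 CPM in those from fresh follicles. In GV oocytes it had 584, 612, 1264 and 805 CPM with vitrified follicles and 1021, 1063, 1126 and 1082 CPM with fresh ones. The log2 fold change was −7.78 ± 0.79 and −6.79 ± 0.76, with vitrified and fresh follicles in that order (edgeR adjusted p of 2.6e-10 and 2.55e-09). Uqcrh, the hinge protein between cytochromes c1 and c, had medians of 6.82 and 14.4 CPM at MII with vitrified and fresh follicles. It had 588, 379, 389 and 387 CPM in GV oocytes from vitrified and 516, 652, 664 and 531 CPM in those from fresh follicles. The log2 fold change of Uqcrh was −5.89 ± 0.35 with vitrified and −5.29 ± 0.35 with fresh follicles (edgeR adjusted p of 1.01e-15 and 1.01e-14), with every MII oocyte below every GV oocyte. Uqcr10 and Uqcrb, small subunits too, had log2 fold changes of −5.78 and −4.48 with vitrified and −4.78 and −4.29 with fresh follicles.

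Uqcrfs1 and Cyc1 carry redox centres of complex III. Uqcrfs1, the Rieske iron-sulphur protein, had medians of 9.01 and 9.29 CPM at MII with vitrified and fresh follicles, and 23.4 to 49.5 CPM and 31.6 to 47.4 CPM at GV. With vitrified follicles the log2 fold change of Uqcrfs1 was −1.88 ± 0.35, and with fresh ones −1.87 ± 0.35 (edgeR adjusted p of 2.28e-05 and 2.7e-05). Cyc1, cytochrome c1, passed with vitrified follicles (log2 fold change −3.46 ± 0.83, edgeR adjusted p = 0.000571) and not with fresh ones (−1.67 ± 0.84, edgeR adjusted p = 0.0929). Fresh oocyte 11 held 56.4 CPM of Cyc1, and the other 11 MII oocytes from fresh follicles had 0.401 to 5.81 CPM. Without it Cyc1 passed with fresh follicles, at a log2 fold change of −3.19 (edgeR adjusted p = 4.82e-05). Uqcr11 had 1 count in all over the GV oocytes from vitrified follicles and 3 over those from fresh follicles, and medians of 0.940 and 2.37 CPM at MII. The pooled ratio of MII to GV was 119 (21.4 to 4716) and 141 (48.2 to 683), in the same order. Near-identical pseudogenes exist for Uqcrb (3) and Uqcr11 (2), so counts of both are uncertain.

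In complex IV, cytochrome c oxidase, 12 of 15 genes passed with vitrified follicles, 1 higher and 11 lower, and 14 passed with fresh follicles, 1 higher and 13 lower. Over all genes 57.0% passed with vitrified follicles (33.7% lower) and 52.6% with fresh follicles (29.8% lower). Cox4i1, the ubiquitous form of subunit 4, had the highest level per length within complex IV in GV oocytes, at medians of 1016 and 1279 CPM per kilobase with vitrified and fresh follicles. Its lowest, median and highest levels at MII were 3.35, 7.66 and 27.9 CPM with vitrified and 2.54, 9.72 and 139 CPM with fresh follicles. At GV it had 719, 674, 901 and 815 CPM with vitrified and 799, 1009, 922 and 1296 CPM with fresh follicles. No MII oocyte came near the GV values, and the log2 fold change was −6.15 with vitrified and −5.56 with fresh follicles. Cox5a, a matrix-side subunit, had medians of 90.3 and 103 CPM at MII against 646, 574, 553 and 470 CPM at GV with vitrified and 760, 688, 1077 and 576 CPM with fresh follicles. Cox6c, Cox6a1, Cox6b1 and Cox5b had log2 fold changes of −3.49, −4.35, −3.59 and −3.67 with vitrified follicles, and of −2.65, −3.08, −3.28 and −3.78 with fresh follicles.

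**Figure D3:**
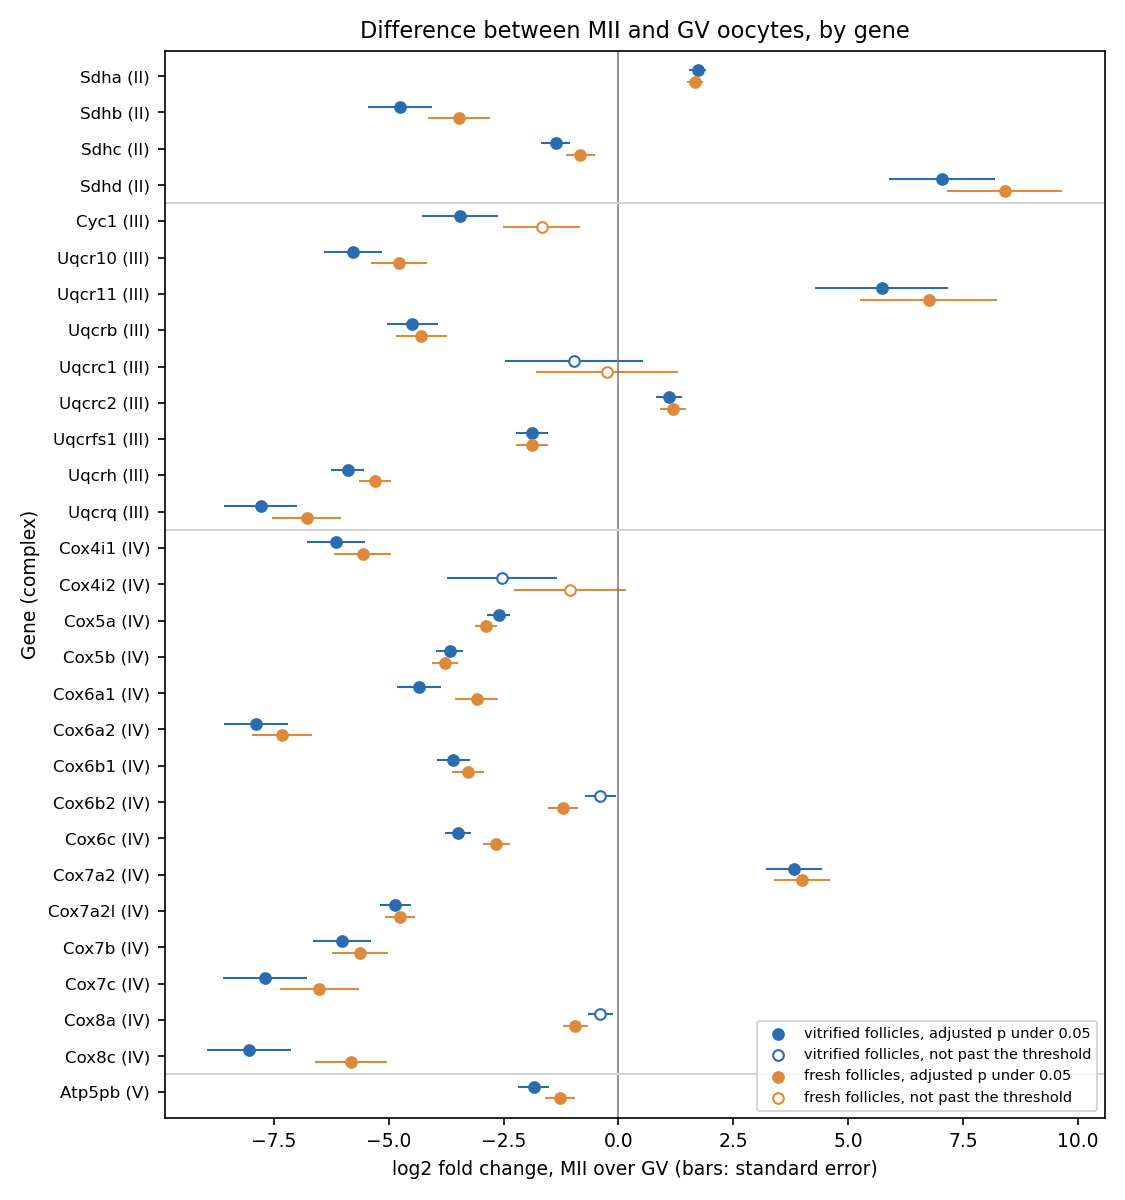
Log2 fold change of MII over GV oocytes for each of the 29 members, by complex, with vitrified follicles (blue) and fresh follicles (orange); bars are standard errors, and open points did not pass an adjusted p of 0.05. Points left of 0 are lower at MII; Sdha, Sdhd, Uqcr11, Uqcrc2 and Cox7a2 lie to the right in both, and the values of Sdhd and Uqcr11, near 0 counts at GV, and of Cox8c, near 0 at MII, are fitted values and no bounds.

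Cox7a2 and Cox7a2l, relatives in sequence, had opposite directions. Cox7a2 is the form of subunit 7a found outside heart and skeletal muscle, and Cox7a2l joins complexes III and IV into supercomplexes. The lowest, median and highest level of Cox7a2 was 14.0, 19.8 and 41.7 CPM in MII oocytes from vitrified follicles and 13.5, 42.5 and 83.4 CPM in those from fresh follicles. It had 2.59, 0.844, 0.481 and 2.39 CPM in GV oocytes from vitrified follicles and 2.46, 1.38, 7.27 and 0.528 CPM in those from fresh follicles. All MII oocytes were above all GV oocytes, and the log2 fold change was 3.82 ± 0.61 with vitrified and 4.00 ± 0.61 with fresh follicles (edgeR adjusted p of 1.87e-06 and 1.09e-06). Cox7a2l had medians of 7.94 and 7.78 CPM at MII with vitrified and fresh follicles. It had 330, 232, 206 and 249 CPM in GV oocytes from vitrified and 197, 248, 312 and 249 CPM in those from fresh follicles. For Cox7a2l the log2 fold change was −4.85 ± 0.33 with vitrified and −4.75 ± 0.33 with fresh follicles (edgeR adjusted p of 2.06e-14 and 4.06e-14). As a share of both genes per kilobase, Cox7a2l made up 18.9 ± 5.73% at MII and 99.0 ± 0.563% at GV with vitrified follicles, and 12.7 ± 6.67% at MII and 98.2 ± 1.5% at GV with fresh follicles (SD, n = 12 and 4). Cox7a2l has 1 near-identical pseudogene.

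Among the tissue-restricted forms of complex IV, Cox6b2, known from testis, was prominent. It had a lowest, median and highest level of 49.8, 70.5 and 188 CPM in MII oocytes from vitrified follicles and 34.9, 93.8 and 245 CPM in those from fresh follicles. In GV oocytes it had 82.3, 129, 114 and 117 CPM with vitrified and 258, 203, 261 and 186 CPM with fresh follicles. Its log2 fold change between stages was −0.39 ± 0.33 with vitrified follicles, which did not pass (edgeR adjusted p = 0.331), and −1.20 ± 0.32 with fresh follicles, which did (edgeR adjusted p = 0.00204). Per kilobase, Cox6b2 was 85.7 ± 3.49% of Cox6b2 plus Cox6b1, the ubiquitous form, in MII oocytes from vitrified follicles and 40.7 ± 7.10% in the GV oocytes. With fresh follicles the share was 78.8 ± 11.2% at MII and 48.6 ± 4.02% at GV (SD, n = 12 and 4). Every MII oocyte had a higher share than every GV oocyte of either treatment, the lowest MII share being 55.6% and the highest GV share 52.8%. The share compares 2 genes within each library.

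**Figure D4:**
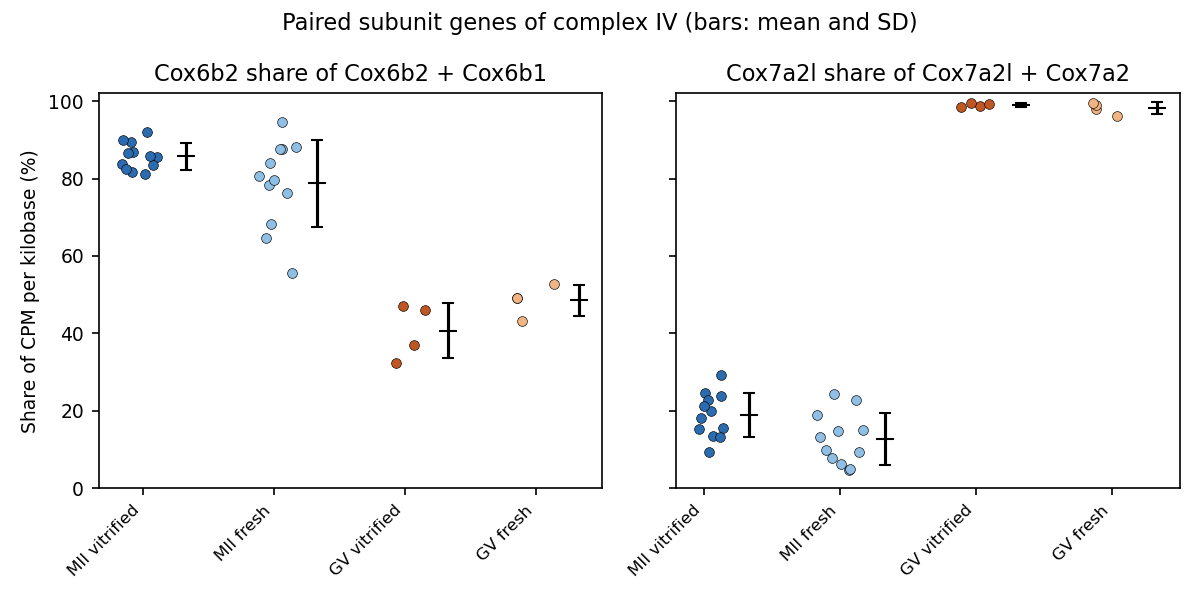
Share of Cox6b2 in Cox6b2 plus Cox6b1 (left) and of Cox7a2l in Cox7a2l plus Cox7a2 (right), in percent of CPM per kilobase, 1 point per oocyte, with the mean and SD of each group. The lowest MII oocyte has 55.6% Cox6b2 and the highest GV oocyte 52.8%, and the highest MII oocyte has 29.1% Cox7a2l and the lowest GV oocyte 96.3%.

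The other tissue-restricted forms had low median levels at MII. Cox6a2, the heart and skeletal muscle form of subunit 6a, had 29.9, 18.6, 25.9 and 29.7 CPM in GV oocytes from vitrified follicles and 15.7, 34.8, 39.9 and 24.1 CPM in those from fresh follicles. It was at most 0.684 CPM at MII with vitrified and 0.453 CPM with fresh follicles, and at 0 in 8 and 4 of 12 oocytes. Cox8c, known from testis, was at most 0.0889 CPM at MII with vitrified and 0.453 CPM with fresh follicles, against 3.67 to 10.9 CPM and 2.64 to 20.2 CPM at GV. Cox4i2, the lung form of subunit 4, was at most 0.684 CPM at MII with vitrified and 7.94 CPM with fresh follicles, the higher value being that of fresh oocyte 11, against at most 1.89 CPM and 2.56 CPM at GV. It did not pass in either comparison, with log2 fold changes of −2.52 and −1.06 (edgeR adjusted p of 0.0711 and 0.487). It passed at −2.84 with fresh follicles without fresh MII oocyte 11 (edgeR adjusted p = 0.0215), and at −2.97 and −2.88 with vitrified follicles without vitrified MII oocyte 1 or 7 (edgeR adjusted p of 0.0400 and 0.0439). Of these forms, 10.3% of the exon bases of Cox6a2 lie over exons of Itgad.

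Cox8a, the ubiquitous form of subunit 8, was the highest member of complex IV per length at MII, with medians of 325 and 344 CPM per kilobase with vitrified and fresh follicles. Its lowest, median and highest levels were 98.8, 179 and 278 CPM in MII oocytes from vitrified follicles and 90.4, 189 and 397 CPM in those from fresh follicles. In GV oocytes it had 146, 241, 268 and 293 CPM with vitrified and 341, 362, 362 and 373 CPM with fresh follicles. The stages overlapped with both kinds of follicle, and the log2 fold change was −0.39 ± 0.27 with vitrified (edgeR adjusted p = 0.222) and −0.93 ± 0.26 with fresh follicles (edgeR adjusted p = 0.00312). In complex V, Atp5pb, the b subunit of the stator that holds the catalytic head still, had medians of 32.7 and 38.2 CPM at MII with vitrified and fresh follicles. It had 191, 119, 46.0 and 106 CPM in GV oocytes from vitrified and 127, 64.0, 204 and 50.2 CPM in those from fresh follicles. The log2 fold change of Atp5pb was −1.85 with vitrified and −1.27 with fresh follicles, and the fresh call was lost without fresh GV oocyte 3. Near-identical pseudogenes exist for Atp5pb (2), Cox6c (2), Cox7b (2) and Cox7c (2).

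Groups did not overlap between the stages for 21 of 29 members with vitrified follicles, 3 higher and 18 lower at MII, where 13.4% and 20.5% of all genes did so. With fresh follicles they did not overlap for 20 members, 4 higher and 16 lower, where the background was 12.6% and 18.3%. Other gene families also had medians below 0. The median log2 fold change of 46 complex I genes was −4.52 with vitrified and −3.84 with fresh follicles. It was −5.04 and −4.59 for 88 cytosolic ribosomal protein genes and −3.28 and −3.21 for 78 mitochondrial ribosomal protein genes. No difference between these families and complexes II to V was tested. Across the 27 members other than Sdhd and Uqcr11, shorter mRNAs had lower log2 fold changes, with Pearson's r of 0.47 with vitrified and 0.51 with fresh follicles. Over 11357 genes r was 0.24 and 0.25, and these points share the same libraries.

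Genes outside the members whose log2 CPM over the 32 oocytes was most like the mean of a complex were also listed. For complex IV these were Rps13 (r = 0.99), Dynlrb1, Ndufs5 and Tmem258, and for complex III Mif (r = 0.98), Psmb5, Rpl6 and Rpl18. For complex II they were Bsg (r = 0.81), Mpv17, Emp3, Alg5 and Eno1b, and for complex V Gtf2e2 (r = 0.90), Ndufb6, Med7, Vps29 and Mrps18b. These correlations describe 32 oocytes in 2 stages.

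Genes that build, feed or drain the complexes were examined as lists, whose counts stand beside 23.3% higher and 33.7% lower over all genes with vitrified follicles, and 22.8% higher and 29.8% lower with fresh follicles. Of 35 tested assembly factors of complexes II to V, 4 were higher and 24 lower at MII with vitrified follicles, and 4 higher and 24 lower with fresh follicles. Cox17, which carries copper to complex IV, had medians of 0.620 and 0.511 CPM at MII with vitrified and fresh follicles and 218 and 336 CPM at GV. Its log2 fold change was −8.0 with vitrified and −7.90 with fresh follicles. Surf1, another complex IV assembly factor, and Sdhaf2, which adds flavin to Sdha, had log2 fold changes of −4.29 and −3.70 with vitrified and −3.34 and −3.39 with fresh follicles. Atpaf1, which helps assemble the head of ATP synthase, was higher, at log2 fold changes of 2.32 with vitrified and 2.54 with fresh follicles.

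Of 23 tested electron carriers and other entries to the quinone pool, 6 were higher and 10 lower at MII with vitrified follicles and 6 higher and 8 lower with fresh follicles, near the shares over all genes (23.3% higher and 33.7% lower with vitrified, 22.8% and 29.8% with fresh follicles). Cycs, the somatic cytochrome c that links complexes III and IV, had medians of 40.4 and 45.9 CPM at MII with vitrified and fresh follicles and 439 and 597 CPM at GV. Its log2 fold change was −3.97 with vitrified and −3.54 with fresh follicles. Dhodh and Etfa, which feed electrons towards ubiquinone from pyrimidine synthesis and from fatty acid oxidation, had log2 fold changes of 1.95 and 1.15 with vitrified and 1.54 and 1.31 with fresh follicles. Of 9 genes for ATP export and phosphate import, 2 were higher and 5 lower with vitrified follicles, and 3 higher and 5 lower with fresh follicles, where 57.0% and 52.6% of all genes passed. The phosphate carrier Slc25a3 rose by 0.98 and 1.78 on the log2 scale with vitrified and fresh follicles, and the ADP/ATP carrier Slc25a4 fell by 1.55 and 1.81. The related carrier Slc25a5 had log2 fold changes of −0.20 and 0.03 and did not pass. The outer membrane channels split, with log2 fold changes of 2.39 and 2.03 for Vdac1 and −3.96 and −3.07 for Vdac3.

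Of 15 regulators of respiratory gene expression, 3 were higher and 7 lower at MII with either kind of follicle, where 57.0% of all genes passed with vitrified and 52.6% with fresh follicles (23.3% and 22.8% higher). Nrf1, which encodes the factor whose letters were searched above, had medians of 29.3 and 27.4 CPM at MII with vitrified and fresh follicles and 21.3 and 25.3 CPM at GV. Its log2 fold changes of 0.11 ± 0.31 and −0.06 ± 0.31 did not pass. Tfam packages mitochondrial DNA and helps to start its transcription, and Lrpprc stabilises mitochondrial transcripts. The log2 fold changes of Tfam and Lrpprc were −2.22 and −2.49 with vitrified and −2.20 and −1.40 with fresh follicles. These lists were compared over the same oocytes as the members.

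Vitrified and fresh follicles were next compared within each stage. At MII, 22 of 29 members entered the test, and 0 passed an adjusted p of 0.05 with edgeR, where 0% of 8428 genes passed. At an unadjusted p of 0.05 there were 10 members, 45.5%, beside 12.5% of all genes. With DESeq2 3 members passed, Cox6c, Cox6a1 and Cox7a2, where 0.747% of genes passed, and with limma-voom 0 passed. The median log2 fold change of members was −0.86, with 20 of 22 below 0, beside −0.05 and 54.7% below 0 over all genes. Without fresh oocyte 11 the median was −0.24, with 15 of 22 below 0 and 5, 22.7%, at an unadjusted p of 0.05. Over all genes in that fit the median was −0.011, with 51.1% below 0 and 12.96% at an unadjusted p of 0.05. Uqcrq and Cox4i1, at −1.49 and −1.03 with all oocytes, were at 0.11 and 0.04 without fresh oocyte 11. Sdhb, at −1.31 with all oocytes, was at −0.26 without it. Fresh oocyte 11 was also set apart by its markers of cumulus and granulosa cells, and their part in these values was not tested.

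**Figure D5:**
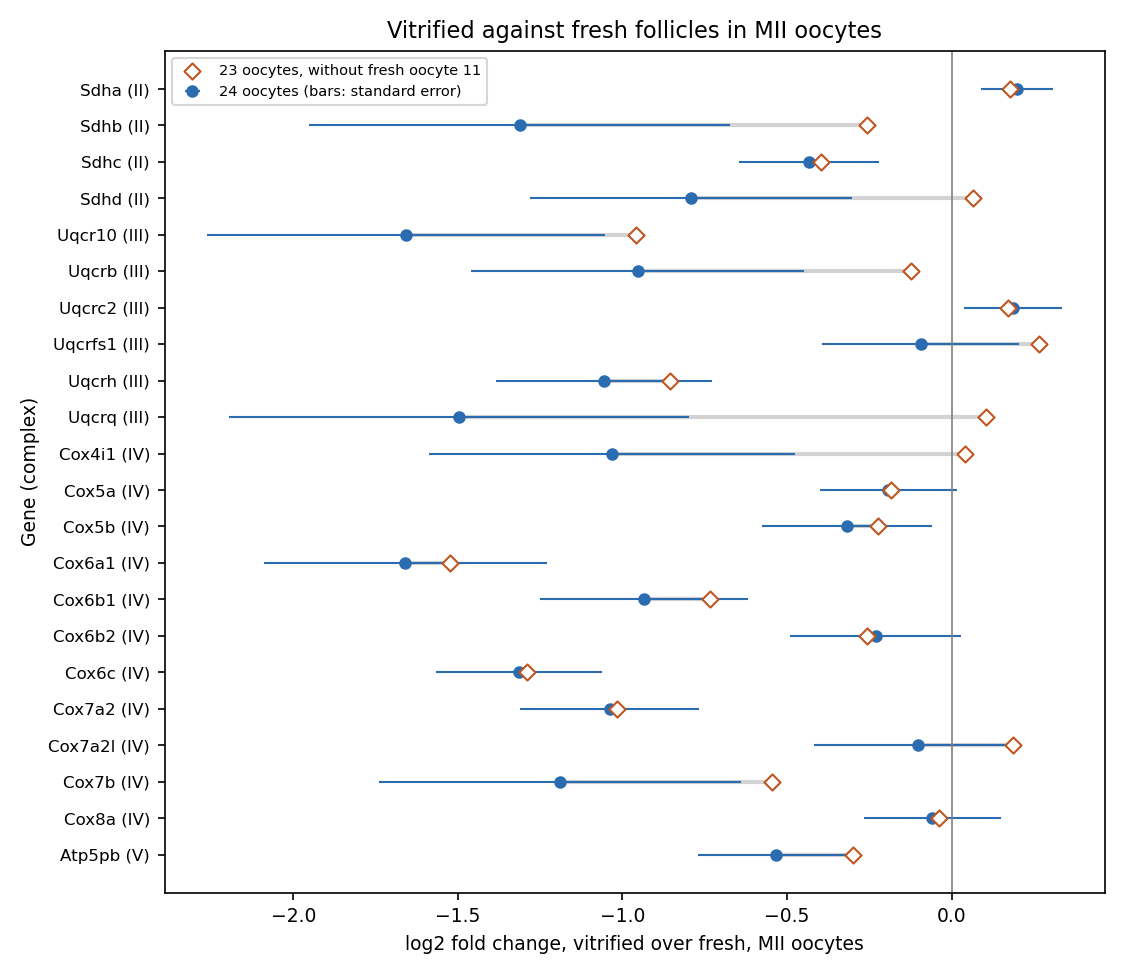
Log2 fold change of vitrified over fresh follicles in MII oocytes for the 22 members tested, with all 24 oocytes (filled, bars are standard errors) and without fresh oocyte 11 (open diamonds). Cox6c, Cox6a1 and Cox7a2 change little, while Sdhb, Uqcrb, Uqcrq and Cox4i1 lie close to 0 without that oocyte.

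The genes of complex IV with the smallest p at MII did not turn on that oocyte. Cox6c, a small subunit of complex IV, had a lowest, median and highest level of 14.7, 31.99 and 38.1 CPM in MII oocytes from vitrified follicles, against 24.9, 81.4 and 113 CPM in those from fresh follicles. The groups overlapped, and the log2 fold change was −1.31 ± 0.25 (edgeR adjusted p = 0.133) and −1.29 without fresh oocyte 11. Its adjusted p was 0.00110 with DESeq2 and 0.0239 in the fit of all 32 oocytes, and it passed edgeR without fresh oocyte 6 or without fresh oocyte 8. Cox6a1, the ubiquitous form of subunit 6a, had 3.75, 10.1 and 28.6 CPM with vitrified and 4.81, 34.3 and 98.3 CPM with fresh follicles. Its log2 fold change was −1.66 ± 0.43 (edgeR adjusted p = 0.190), and −1.53 without fresh oocyte 11. Cox7a2, whose MII levels are given above, had −1.04 ± 0.27 (edgeR adjusted p = 0.190) and −1.02 without that oocyte. The DESeq2 adjusted p was 0.0256 for Cox6a1 and 0.0316 for Cox7a2. Within oocytes with library numbers under 20 the log2 fold changes of Cox6c, Cox6a1 and Cox7a2 were −1.28, −1.95 and −1.09, and with numbers of 20 and over they were −1.40, −1.21 and −0.96. None of the 3 passed within either set with edgeR.

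Other members at MII lay between. Cox6b1 was at −0.93 ± 0.32 and Uqcrh at −1.06 ± 0.33, with edgeR adjusted p of 0.257 and 0.215, and both stayed at −0.74 and −0.85 without fresh oocyte 11. Uqcr10 was at −1.66 ± 0.60 and Atp5pb at −0.53 ± 0.24, with edgeR adjusted p of 0.283 and 0.361. Without fresh oocyte 11 they were at −0.96 and −0.30, and neither had an unadjusted p under 0.05 (edgeR, 0.0849 and 0.138). Sdha was one of 2 members above 0, at 0.20 ± 0.11 (edgeR adjusted p = 0.452), the other being Uqcrc2. A p that misses the threshold does not show that the groups were alike. The median of members was −0.23 with library numbers under 20 and −1.13 with 20 and over, where fresh oocyte 11 belongs to the second set. The median of 32 tested complex I genes was −0.80 and that of 55 cytosolic ribosomal protein genes −0.97. Both medians include fresh oocyte 11 and were not taken without it. That oocyte had 5544 CPM summed over cytosolic ribosomal protein genes, beside a median of 1201 CPM over MII oocytes from fresh follicles. For complex I genes the sums were 1847 and 1177 CPM, in the same order.

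In GV oocytes 27 members were tested and 0 passed an adjusted p of 0.05 with edgeR, where 0% of 10831 genes passed, and DESeq2 and limma-voom also passed 0. At an unadjusted p of 0.05 there was 1 member, Cox6b2, beside 1.66% of all genes. The median log2 fold change was −0.41, with 21 of 27 below 0, beside 0.00 and 49.8% below 0 over all genes. It was −0.21 without fresh GV oocyte 3. The medians of 46 complex I, 88 cytosolic ribosomal and 76 mitochondrial ribosomal protein genes were −0.26, −0.42 and −0.07. Of these genes 76.1%, 85.2% and 57.9% were below 0, in the same order. Of 15 complex IV genes 14 were below 0, and of 3 complex II genes 0 were. Cox6b2 had a log2 fold change of −1.03 ± 0.28 with an unadjusted p of 0.00257, and the values given above show no overlap between the treatments. Cox8a did not overlap either, at −0.60 ± 0.28 with an unadjusted p of 0.0518. Groups that did not overlap, lower with vitrified follicles, were 1.30% of all genes tested.

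Whether the stage difference itself depended on the follicle's treatment was tested as an interaction in the fit of all 32 oocytes. Of 29 members 0 passed with edgeR, where 0% of 11470 genes passed, and 0 had an unadjusted p under 0.05, beside 4.07% of genes. DESeq2 passed 0 members and 0.0703% of genes, and limma-voom passed 0 members. The smallest unadjusted p values were those of Cox8c at 0.0521, Cox6c at 0.0731 and Cox6a1 at 0.0984. The difference of log2 fold changes, vitrified minus fresh, was −0.84 ± 0.45 for Cox6c and 0.81 ± 0.48 for Cox6b2. Cyc1, Cox6b2 and Cox8a passed in 1 stage comparison and not in the other, and their unadjusted interaction p values were 0.175, 0.104 and 0.172. Without fresh MII oocyte 11, Cyc1 passed in both stage comparisons, with an unadjusted interaction p of 0.783, and Cox8c had an unadjusted interaction p of 0.0410. The median interaction of members was −0.58, beside −0.13 over all genes. Without fresh MII oocyte 11 these medians were −0.12 and −0.055. For complex I, cytosolic ribosomal and mitochondrial ribosomal protein genes the median interaction was −0.68, −0.60 and −0.24 with all oocytes.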

How the data were processed

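RNA of 32 single oocytes was measured, 1 SMART-Seq v4 library each, per the labels. The submitters' processing notes list HISAT2, featureCounts and mm10, with no version. The unit is not named there: the deposited GV values were whole and were used as counts. Of the authors' MII values, 11.7% to 19.7% per oocyte were not whole, so these deposited values were treated like estimated counts and rounded. Of 13202 entries, 27 exact repeats were removed. Libraries were scaled by TMM, and CPM are shares of a library, so total mRNA per oocyte does not enter. Genes were filtered with filterByExpr (minimum 10 counts, 15 in total). Tests were two-sided quasi-likelihood F tests of edgeR 4.0.16 (R 4.3.3) with Benjamini-Hochberg adjustment over all genes at 0.05. Treatments were compared within each stage, and stages and their interaction in 1 fit of all 32 oocytes, so the comparisons share oocytes. Errors are SE for log2 fold changes and SD for CPM.

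DESeq2 1.42.0, limma 3.58.1 (voom) and other settings, 44 in all, were run as alternatives. Per-kilobase levels use the median mRNA length in GENCODE M21. Pseudogenes were called near-identical at 95% identity over 100 aligned bases (blastn 2.17.0). On simulated counts of the real means, 82% of genes changed 4-fold and 55% of those changed 2-fold were recovered in the MII comparison (8195 genes). In the GV comparison 25% and 0% were recovered (10519 genes). Between the stages 48% and 16% were recovered with vitrified follicles (11090 genes) and 44% and 9% with fresh follicles (11081 genes). The simulation gave each gene 1 mean over the oocytes and set no single oocyte apart. Full statistics are given for up to 3 members per complex with the smallest p and for members fixed by name. A few items, among them 1 of the 5 genes most like complexes III and IV, are not reported here. The members, lists and alternatives were chosen with earlier results of these data known. Oocytes were not treated as paired in the main tests. Deviations of oocytes with the same replicate number correlated between −0.385 and 0.289. Pairs with different replicate numbers, or with the same library number, were not examined, so these values cannot exclude a pairing.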

Additional observations from a re-analysis of the deposited data

Results flagged for a closer look

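Single GV oocytes stood apart from the other 3 of their group in 3 of 54 groups examined, where chance gives about 1 in 20. Uqcrh, the hinge protein of complex III, had 588 CPM in vitrified GV oocyte 1, while the other 3 oocytes of that group had 379 to 389 CPM. Cox7b, a small subunit of complex IV, had 461 CPM in the same oocyte, while the other 3 had 246 to 249 CPM. Uqcrb, a small subunit of complex III, had 306 CPM in fresh GV oocyte 3, while the other 3 had 82.2 to 117 CPM. In each case the gap to the nearest oocyte was above the 95% critical value of Dixon's test.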

How the results depend on the processing

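For the stage comparisons, leaving out 1 oocyte at a time gave 25 to 26 called members with vitrified and 25 to 28 with fresh follicles (median log2 fold change −3.69 to −3.42 and −3.19 to −2.67). The fresh median was −3.53 with limma-voom and −3.44 without 4 MII oocytes high in cumulus cell genes. Fresh oocyte 11 is 1 of these 4, so values without the 4 oocytes and without that oocyte alone share its removal. DESeq2 size factors moved the median of all genes to −0.45 and −0.37, with vitrified and fresh follicles, and left 25 and 26 members called. At MII, the median of members between treatments was −0.44 with a stricter filter, −0.38 with DESeq2, −0.30 with limma-voom, −0.29 with the replicate block, −0.23 with library numbers under 20, −0.26 without the 4 oocytes, and −1.04 to −0.24 when 1 oocyte was left out. Called members at MII were 3 with DESeq2, 1 in the fit of all 32 oocytes and 0 to 1 when 1 oocyte was left out. Cox4i1 turned to 0.055 with DESeq2, 0.036 without the 4 oocytes and 0.041 without fresh oocyte 11, and Uqcrq to 0.13 with DESeq2 and 0.11 without that oocyte; leaving out 1 oocyte gave −1.25 to 0.04 for Cox4i1 and −1.88 to 0.11 for Uqcrq. The median interaction was −0.10 with limma-voom, −0.17 with the replicate block, −0.017 and −0.98 with library numbers under 20 and of 20 and over, −0.12 without the 4 oocytes, and −0.77 to −0.12 when 1 oocyte was left out. Uqcrc1 in fresh follicles turned to 0.92 with library numbers of 20 and over, and ran between −2.32 and 0.24 when 1 oocyte was left out. With the replicate block, Cox6b2 turned to 0.077 with vitrified follicles, and 26 and 25 members were called between the stages with vitrified and fresh follicles. The cause of these changes was not tested. Low counts at MII limit Cox4i2, Cox6a2, Cox7c, Cox8c, Uqcr11 and Uqcrc1, and 4 GV oocytes per treatment limit every GV comparison.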
